A study of Mus musculus with 3 samples.

Results

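The genes described here encode the enzymes that make prostaglandins and leukotrienes. They are 10 genes, taken by symbol from the 55536 annotated genes of the deposited tables: Pla2g4a, Ptgs1, Ptgs2, Ptges, Ptges3, Hpgds, Alox5, Alox5ap, Lta4h and Ltc4s. They were measured by ribosomal RNA-depleted total RNA-seq in the cytosolic fraction of primary macrophages grown from the bone marrow of C57BL/6J mice. All libraries belonged to 1 group: the cells were treated with 100 ng/ml Lipid A (the endotoxin portion of lipopolysaccharide, a ligand of Toll-like receptor 4) for 12 h, then left without it for 12 h after washing, and then given 100 ng/ml Lipid A again for 30 min. The group holds 3 biological replicates with the same donor entry and 1 µg of RNA each, so the spread given here may be partly technical, and the sex and age of the mice are not stated. No untreated, singly treated or nuclear sample was used here, so every value is a level at 1 time point and no change with Lipid A is stated.

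The libraries held 28759407, 54709008 and 49878183 expected counts in annotated genes in replicates 1, 2 and 3. A count of 0 allowed up to 3 counts, or 0.104, 0.0548 and 0.0601 CPM (counts scaled to library size), as far as counting error goes. Levels are in TPM, the transcript abundance per library that divides by transcript length and so allows genes to be compared within a library. Nuclear protein-coding genes held 29.96%, 27.89% and 29.42% of TPM, so a TPM value here is lower than in a library of messenger RNA alone. All 10 macrophage markers on a fixed list were detected, with Lyz2 (lysozyme) the highest at 3194 ± 13.1 TPM. Of 50 markers of 7 other cell classes, 4 were detected: Pf4 of the platelet list, S100a8 and S100a9 of neutrophils and Hdc of mast cells. In bulk libraries of this kind, fewer cells expressing a gene and less RNA per cell cannot be told apart.

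Arachidonic acid, a fatty acid held in membrane phospholipids, is released by cytosolic phospholipase A2. The cyclooxygenases turn it into prostaglandin H2, from which separate synthases make prostaglandin E2, prostaglandin D2 and the other prostanoids. In the other branch 5-lipoxygenase, which depends on an activating protein in the nuclear membrane, makes leukotriene A4, which is turned into leukotriene B4 or, by conjugation with glutathione, leukotriene C4. Macrophages are a known source of both families of lipid, and cyclooxygenase 2 is a textbook gene of the inflammatory response.

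The promoters of Ptgs2, Ptges and Ptgs1 are printed because these were the detected members whose TPM ranged most widely between the replicates. Each window comes from RefSeq on GRCm38.p6 (the mm10 build) and runs from 250 bases before the annotated start to 30 bases from it on, 5′ to 3′ on the gene's strand. The 3 starts are those of the main transcripts measured here. Capitals mark matches to the motifs searched on both strands: GAGGAA (PU.1), GGGCGG (GC box), TTGCNNAA (C/EBP), CGTCA (the core of the cyclic AMP response element) and CACGTG (E-box).
Ptgs2, chr1:150099781-150100060, plus strand: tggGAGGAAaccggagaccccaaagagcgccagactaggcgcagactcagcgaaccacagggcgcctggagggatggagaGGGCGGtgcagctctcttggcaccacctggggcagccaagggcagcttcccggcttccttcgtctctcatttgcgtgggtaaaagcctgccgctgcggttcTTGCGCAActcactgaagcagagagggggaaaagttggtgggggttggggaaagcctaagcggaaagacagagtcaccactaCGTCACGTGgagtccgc
Ptges, chr2:30903268-30903547, minus strand: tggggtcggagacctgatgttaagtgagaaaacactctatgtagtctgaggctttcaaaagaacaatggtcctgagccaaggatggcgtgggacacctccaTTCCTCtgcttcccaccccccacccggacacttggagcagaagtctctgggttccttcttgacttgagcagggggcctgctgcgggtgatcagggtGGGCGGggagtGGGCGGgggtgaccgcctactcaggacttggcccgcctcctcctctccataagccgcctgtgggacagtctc
Ptgs1, chr2:36230176-36230455, plus strand: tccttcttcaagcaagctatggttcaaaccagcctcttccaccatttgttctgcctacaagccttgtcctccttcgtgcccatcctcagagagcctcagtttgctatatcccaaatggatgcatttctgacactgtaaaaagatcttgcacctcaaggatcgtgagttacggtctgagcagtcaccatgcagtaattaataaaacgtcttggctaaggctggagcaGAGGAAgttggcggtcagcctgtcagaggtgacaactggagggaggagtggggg
The Ptgs2 window had a GC content of 61.4%, the Ptges window 59.6% and the Ptgs1 window 49.6%, beside a median of 52.5% over all 32851 RefSeq windows of this length. In Ptgs2 the C/EBP match lay 69 to 62 bases before the start and the GC box 170 to 165 bases before it. The response element core and the E-box of Ptgs2 shared 2 letters and lay at bases 14 to 18 and 17 to 22 from the start on. Ptges held 2 GC boxes, 53 to 48 and 42 to 37 bases before the start, and a PU.1 match on the opposite strand. The only match in Ptgs1 was a PU.1 sequence 24 to 19 bases before the start. Of all windows, 26% held the PU.1 motif, 34.7% the GC box, 10.4% the C/EBP motif, 19.9% the response element core and 6.79% the E-box. The TATA box TATAAA (on the gene's strand, in 8.02% of all windows), the whole response element TGACGTCA (1.74%), the AP-1 motif TGANTCA (7.46%) and the NF-kB motif (7.94%) were also searched and had no match in these 3 windows, which says only that these letters are not there. A match describes the sequence and is not evidence of binding.

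Most of the pathway was present, but its level differed strongly from step to step. Alox5ap (the 5-lipoxygenase activating protein), Hpgds (the hematopoietic prostaglandin D synthase) and Ptges3 stood highest, at 113 ± 6.53, 49.9 ± 5.40 and 36.0 ± 3.38 TPM (SD over the 3 libraries, as throughout). Lta4h, Ptgs2 and Pla2g4a lay near 10 TPM or a little below, Ptges and Ptgs1 between 1 and 5 TPM on average, and Ltc4s and Alox5 below 1 TPM. Detection was set at 1 TPM in every library, and 8 of the 10 genes passed it, all but Alox5 and Ltc4s. Of all annotated genes 17.2% passed, and of the 22028 protein-coding genes 41.2%.

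**Figure D1:**
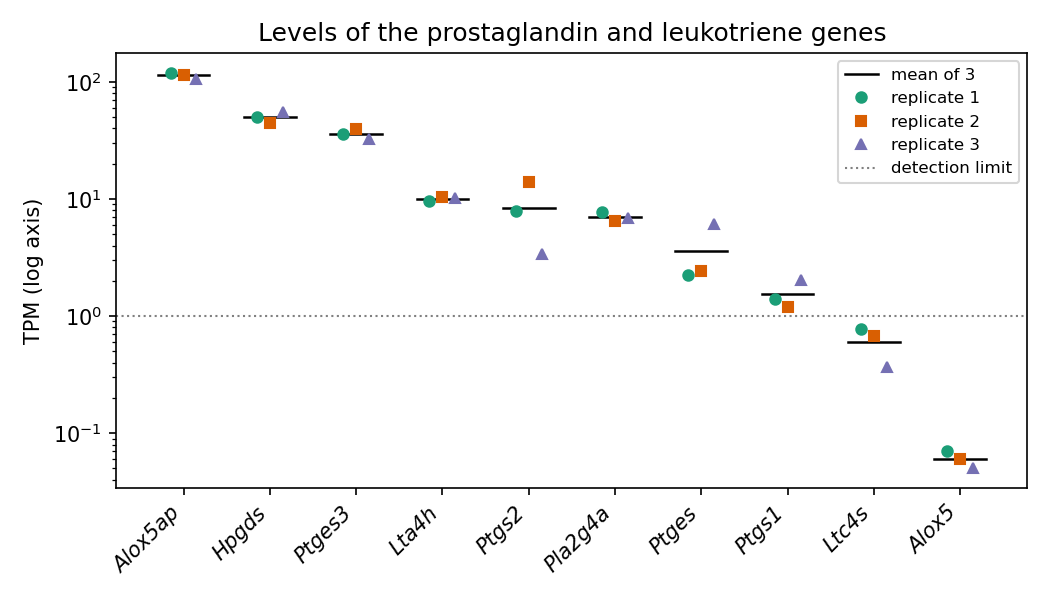
TPM (log axis) of the 10 genes in each library, ordered by the mean over 3 libraries (bars), with the detection limit of 1 TPM as a dotted line. Alox5ap lies highest in every library at 106.3 TPM or more, Alox5 lowest at 0.07 TPM or less, and the points of Ptgs2 and Ptges are spread the widest.

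Neighbours in this order were compared by the difference of log2(TPM + 1) within each library. A difference was called when it had 1 sign in all 3 libraries and a mean above 3 SD. The order came from these same libraries, so the direction of each mean was largely set in advance. A call describes only how steady the difference was. Of 9 neighbouring pairs 3 were called: Alox5ap above Hpgds by 1.17 ± 0.21, Ptges3 above Lta4h by 1.74 ± 0.13, and Ltc4s above Alox5 by 0.59 ± 0.18. Means above 1 SD but not above 3 SD were seen for Hpgds over Ptges3 (0.46 ± 0.29), Pla2g4a over Ptges (0.90 ± 0.66), Ptges over Ptgs1 (0.77 ± 0.40) and Ptgs1 over Ltc4s (0.66 ± 0.43). Lta4h and Ptgs2 (0.40 ± 0.88) and Ptgs2 and Pla2g4a (0.06 ± 0.92) differed by less than 1 SD, so their order is not settled. Without replicate 3 the number of called pairs was 6. With any replicate left out, each SD rests on fewer libraries and a call is less certain. Ltc4s over Alox5 lost its call without replicate 1 (0.52 ± 0.19) and without replicate 2 (0.55 ± 0.24), and Hpgds over Ptges3 gained one without replicate 2 (0.60 ± 0.19). Alox5ap over Hpgds and Ptges3 over Lta4h were called with any 1 replicate left out. With only 3 libraries the exact two-sided sign-flip test cannot go below p = 0.25, which is the value of every difference with 1 sign in all libraries.

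The first enzyme, cytosolic phospholipase A2, is encoded by Pla2g4a (ENSMUSG00000056220.14, mm10 chr1:149829618-149961290, minus strand). It cuts arachidonic acid from phospholipids when calcium rises. Pla2g4a stood at 7.69, 6.53 and 6.88 TPM in replicates 1, 2 and 3, from 968, 1720 and 1529 counts, and 44.8% of the detected protein-coding genes lay below its mean. The 3 libraries lay close together, and 99.2 ± 0.297% of its counts fell to protein-coding transcripts.

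The cyclooxygenases were both present. Ptgs1, the isoform usually described as constitutive (ENSMUSG00000047250.13, mm10 chr2:36230426-36252272, plus strand), stood at 1.39, 1.19 and 2.05 TPM, from 164, 315 and 419 counts. Only 4.64% of detected protein-coding genes lay below it, so it was a low transcript in each library, and replicate 3 was the highest.

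Ptgs2, the inducible cyclooxygenase (ENSMUSG00000032487.8, mm10 chr1:150100031-150108227, plus strand), stood at 7.91, 13.98 and 3.41 TPM, from 1600, 5904 and 1214 counts. Replicate 2 was the highest and replicate 3 the lowest, 4.1-fold apart, and the coefficient of variation of 62.9% was the largest among the 10 genes. A single coding transcript held 100% of its counts in every library. Ptgs2 lay above Ptgs1 in all 3 libraries, by 1.90, 2.77 and 0.53 on the log2(TPM + 1) scale. The mean of 1.73 ± 1.13 was within 3 SD and so was not called, and the exact sign-flip p was 0.25. The difference was much smaller in replicate 3, where Ptgs2 was lowest and Ptgs1 highest. Without that library it was 2.34 ± 0.62 and passed the limit of 3 SD, but that SD rests on fewer libraries.

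Of the terminal prostaglandin E synthases, the cytosolic one exceeded the microsomal one. Ptges, the inducible microsomal prostaglandin E synthase that works with Ptgs2 (ENSMUSG00000050737.13, mm10 chr2:30889471-30929863, minus strand), stood at 2.26, 2.43 and 6.07 TPM, from 340, 683 and 1125 counts. Replicate 3 was 2.69-fold above replicate 1, and its mean of 3.59 ± 2.15 TPM became 2.35 TPM without replicate 3. Part of this excess lay in a non-coding isoform: the 703-base processed transcript Ptges-201 held 4.87%, 18.5% and 37.4% of the gene's TPM and 0.703%, 3.21% and 8.24% of its counts. The coding transcript Ptges-202 alone stood at 2.05, 1.93 and 3.55 TPM, so replicate 3 stayed the highest with a narrower range.

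Ptges3 (ENSMUSG00000071072.12, mm10 chr10:128058954-128077272, plus strand) encodes cytosolic prostaglandin E synthase, which is also p23, a co-chaperone of Hsp90. It stood at 35.9, 39.43 and 32.67 TPM, from 3022, 6992 and 4893 counts, above 86% of detected protein-coding genes. Ptges3 exceeded Ptges in every library, by 3.50, 3.56 and 2.25 on the log2(TPM + 1) scale, a called mean of 3.10 ± 0.74. A processed pseudogene, Ptges3-ps, is identical to it over 480 bases and was given 55.77, 177.4 and 100.3 counts, or 1.81%, 2.47% and 2.01% of the sum of the pair. The division of reads between gene and copy is thus uncertain, at a scale far below the difference from Ptges.

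Hpgds, which makes prostaglandin D2 and marks several cells of hematopoietic origin (ENSMUSG00000029919.5, mm10 chr6:65117293-65144908, minus strand), stood at 50.12, 44.33 and 55.11 TPM, from 6161, 10928 and 10725 counts. The libraries were near each other, and 89.7% of detected protein-coding genes lay below it. Ptges lay below Hpgds in all 3 libraries, with differences of -3.97, -3.72 and -2.99 on the log2(TPM + 1) scale and a called mean of -3.56 ± 0.51. The intron-retaining transcripts of Hpgds weighed on this level: the 420-base Hpgds-202 took 22.5%, 25.9% and 31.6% of its TPM from 1.68%, 2.12% and 2.79% of its counts. Its coding transcript alone stood at 35.04 ± 2.71 TPM, and on that basis Hpgds and Ptges3 lay level, with a difference of -0.03 ± 0.22. A pseudogene on the opposite strand within the gene, Gm17147, had 48, 51 and 124 counts, and whether counting used strand is not given in the sources used here.

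Mast cells also express Hpgds. The mast cell list summed to 3.77, 1.79 and 1.83 TPM, mostly Hdc at 2.31 ± 1.10 TPM, while its defining proteases Mcpt4, Cma1, Tpsb2 and Tpsab1 had 0 counts in every library. In each library Hpgds alone lay above the sum of the whole list. The platelet list summed to 117.5, 85.94 and 70.54 TPM, above Hpgds in each library. Nearly all of this was Pf4, at 91.1 ± 24.0 TPM. The 5 others on that list were not detected, the highest of them Ppbp at 0.14 ± 0.0458 TPM. Such sums do not measure how much of Hpgds comes from a cell type, and its source was not tested.

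The 5-lipoxygenase branch was the most uneven. Alox5ap (ENSMUSG00000060063.9, mm10 chr5:149264767-149288153, plus strand), the membrane protein that presents arachidonic acid to 5-lipoxygenase, stood at 119.2, 114.7 and 106.3 TPM, from 3753, 7073 and 5506 counts, above 95.7% of detected protein-coding genes. Alox5, the 5-lipoxygenase itself (ENSMUSG00000025701.12, mm10 chr6:116410077-116461178, minus strand), stood at 0.07, 0.06 and 0.05 TPM, from 2, 16 and 5 counts. Those counts correspond to 0.0706 CPM (exact Poisson 95% interval 0.00855 to 0.255), 0.289 (0.165 to 0.469) and 0.1 (0.0325 to 0.234), so Alox5 was close to the limit of these libraries. The difference between the activating protein and the enzyme was 6.81, 6.77 and 6.68 on the log2(TPM + 1) scale, a called mean of 6.75 ± 0.07. With Alox5 far below the pseudocount of 1, that SD follows Alox5ap alone. In the second quantification, where nuclear protein-coding genes held 14.38%, 14.78% and 9.956% of TPM, the mean was 5.50 ± 0.50. That scale is unlike the first. With both rescaled to nuclear protein-coding genes, the mean was 8.34 ± 0.07 in the first quantification and 8.18 ± 0.19 in the second.

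Alox5ap also carried non-coding sequence. The 504-base processed transcript Alox5ap-204, which lies within the 3′ end of the gene (mm10 chr5:149287415-149288044), held 15.8%, 17.3% and 15.9% of its counts and 38%, 37.7% and 34% of its TPM. The coding transcripts alone stood at 71.9 ± 1.93 TPM, which still exceeded every other member. An antisense gene at the locus, Gm19719, had 5, 3 and 45 counts.

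**Figure D2:**
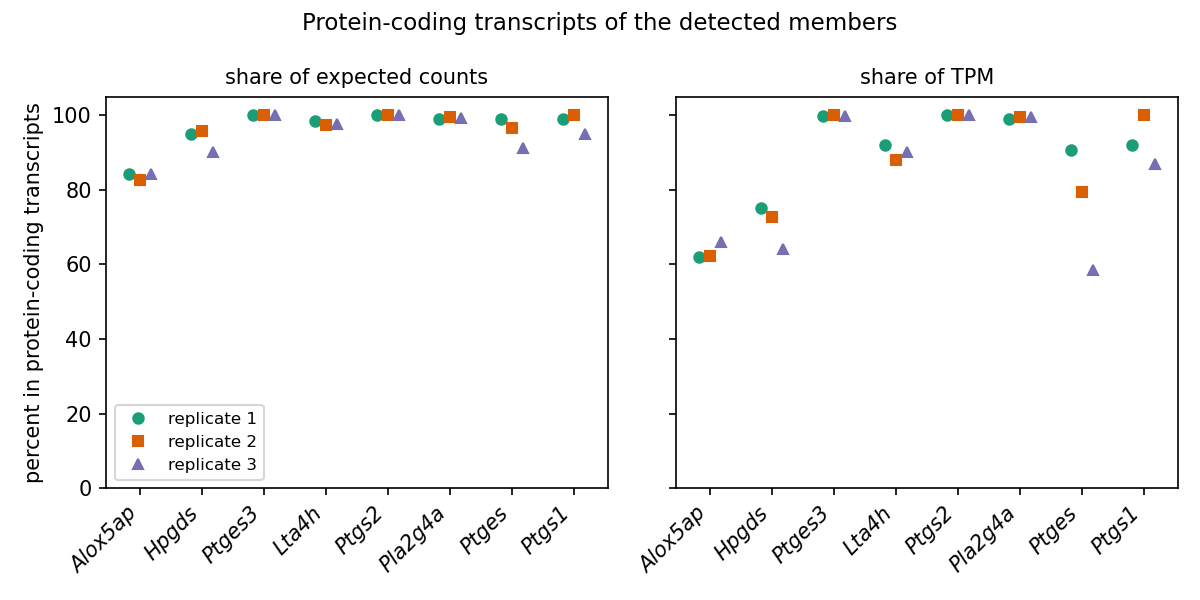
Percent of each detected gene's expected counts (left) and of its TPM (right) in annotated protein-coding transcripts, per library, for the 8 detected members in order of level. Shares of counts lie above 80% throughout, whereas on the TPM scale Alox5ap, Hpgds and Ptges drop to 63.4 ± 2.19%, 70.6 ± 5.81% and 76.2 ± 16.4%, because their short non-coding transcripts weigh more per count.

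Both enzymes that use leukotriene A4 were measured. Lta4h, the leukotriene A4 hydrolase that makes leukotriene B4 (ENSMUSG00000015889.8, mm10 chr10:93453411-93484875, plus strand), stood at 9.66, 10.34 and 10.22 TPM, from 777, 1688 and 1439 counts. It was the steadiest detected member, at 10.1 ± 0.363 TPM. Ltc4s, which makes leukotriene C4 (ENSMUSG00000020377.15, mm10 chr11:50236461-50238616, minus strand), stood at 0.77, 0.67 and 0.37 TPM, from 15, 29 and 14 counts. Its CPM values of 0.529, 0.523 and 0.28 had exact Poisson 95% intervals of 0.296 to 0.873, 0.35 to 0.751 and 0.153 to 0.47, which overlap. Lta4h lay above Ltc4s by 2.59, 2.76 and 3.03 on the log2(TPM + 1) scale, a called mean of 2.80 ± 0.22. The antisense gene Gm26542 at the Ltc4s locus had 1, 11 and 13 counts, a number like that of Ltc4s in 1 of the libraries.

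The replicates differed for some of these genes and hardly for others. A chi-square test of homogeneity, with rounded counts scaled by the trimmed mean of M values (TMM), called 7 of the 9 members with enough counts, beside 66.2% of all 13410 genes tested. That share of members is near the background and singles out nothing. The sizes say more than the calls. Ptges3, Hpgds and Alox5ap were called at Benjamini-Hochberg adjusted chi-square p of 5.12e-42, 8.64e-12 and 7.76e-21, although each library lay within 0.30 log2 of the mean of the others. Pla2g4a was called at 0.0292, and Lta4h (0.0623) and Ltc4s (0.152) did not pass the chi-square test. On the counts of the second quantification both passed the chi-square test (1.85e-06 and 0.0382), and 9 members were called. Single libraries decided other calls: the adjusted chi-square p was 0.764 for Pla2g4a without replicate 1 and 0.546 for Hpgds without replicate 2.

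Ptgs2 departed from the mean of the other libraries by -0.21, 1.40 and -1.75 log2 in replicates 1, 2 and 3, after TMM scaling. Ptges departed by -0.54, -0.49 and 0.89 and Ptgs1 by -0.28, -0.32 and 0.55, so both were high in replicate 3, where Ptgs2 was low. Their adjusted chi-square p-values were 1.48e-44 and 2.11e-07. Both calls rested on that library: without replicate 3 the adjusted chi-square p was 0.685 for Ptges and 0.953 for Ptgs1, while Ptgs2 stayed called at 6.21e-118. In that chi-square test Alox5ap (0.278) and Pla2g4a (0.0686) also lost their calls, and Lta4h gained one (0.0208). The biological coefficient of variation estimated by edgeR was 0.379 for Ptgs2, beside 0.114 for genes of its level, 0.227 for Ptges beside 0.135, and 0.19 for Ptgs1 beside 0.174. The Ptgs2 value was 0.182 without replicate 3 and 0.252 without replicate 2, and the Ptges value 0.127 without replicate 3. For the other detected members it lay below the trend, from 0.102 for Lta4h to 0.119 for Ptges3.

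**Figure D3:**
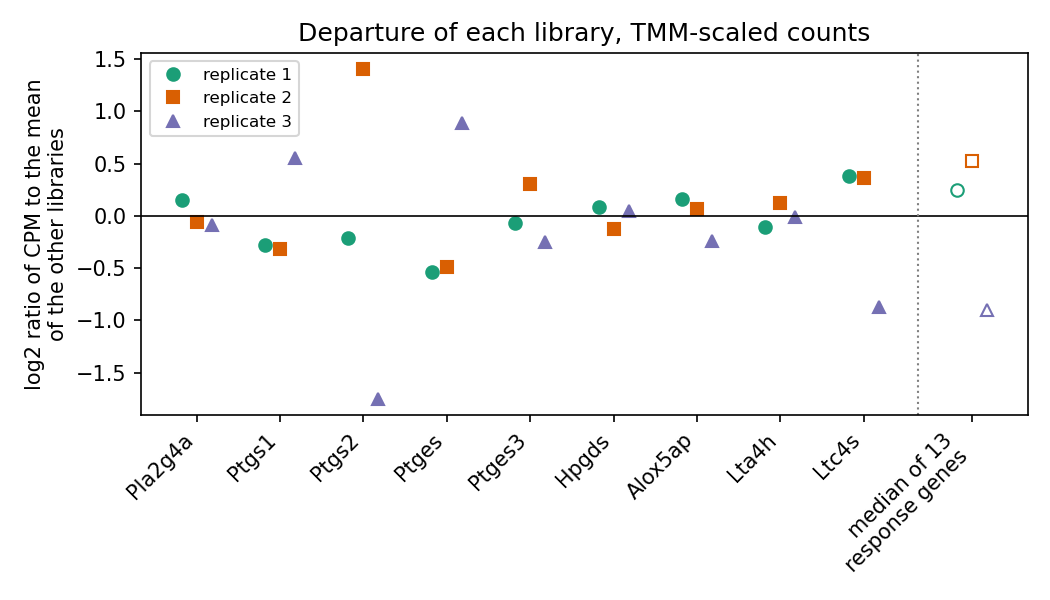
log2 ratio of each library's TMM-scaled CPM to the mean of the other libraries, for the 9 members with enough counts, and (open symbols, right) the median over 13 early response genes. Ptgs2 has the widest range, from -1.75 in replicate 3 to 1.40 in replicate 2, whereas Ptges and Ptgs1 are highest in replicate 3.

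A list of 13 early Toll-like receptor response genes, with Tnf, Ccl3 and Ccl4 the highest of them, gave the setting for Ptgs2. In replicate 3 all 13 were below the mean of the other libraries, with a median of -0.90, and the medians were 0.25 in replicate 1 and 0.52 in replicate 2. The median over all genes was -0.02, 0.03 and -0.02. Replicate 3 was thus low in Ptgs2 and in these genes together, while Ptges and Ptgs1 were not. Retained-intron transcripts took 1.97%, 1.35% and 4.05% of the detected members' counts, beside 1.44%, 1.26% and 1.69% over all transcripts, so replicate 3 also had the largest share of these. Among the detected members this share was largest in Hpgds, at 5.12%, 4.22% and 9.79% of its counts. Ptgs2, Ptges and Alox5ap have no annotated retained-intron transcript, so their share was 0 by annotation and measures nothing. Ptges3, which has such a transcript, held 0.0351%, 0% and 0.0223% in replicates 1, 2 and 3. The share thus differed widely between members that could show it.

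Across the 3 libraries, the genes nearest to Ptgs2 in centred log2 CPM were Slc7a11 (a cystine and glutamate exchanger), Ppp1r15a (a regulator of the phosphatase for eIF2α), Gm14434, Clec4n (the lectin receptor dectin 2) and Maff (a small Maf transcription factor). Their Euclidean distances from Ptgs2 were 0.259, 0.266, 0.312, 0.316 and 0.322. Ppp1r15a was the most abundant, at 124, 162.6 and 39.84 TPM. Each of the 5 was highest in replicate 2 and lowest in replicate 3, as Ptgs2 was, and likeness over 3 libraries is a description only.

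Of 63 further genes of arachidonate metabolism and signalling, on 5 lists by role, 31 were detected, beside 41.2% of all protein-coding genes. The other 32 were not detected, of which 9 had 0 counts in every library. Among the 39 of the 63 with enough counts for the chi-square test, 28 differed between the replicates, which is again near the background share.

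Phospholipases and genes of arachidonate handling were detected in 12 of 19 cases. The highest were Anxa1 (annexin A1, first known as an inhibitor of phospholipase A2) at 79.7 ± 7.39 TPM, the lysosomal phospholipase Pla2g15 at 46.0 ± 8.53 TPM, Acsl4 (which couples arachidonate to coenzyme A) at 16.8 ± 2.08 TPM and Plaa (phospholipase A2 activating protein) at 16.8 ± 0.371 TPM. All 4 lay above Pla2g4a. The lowest detected were the calcium-independent Pla2g6 at 1.34 ± 0.232 TPM and the secreted Pla2g2e at 1.33 ± 0.325 TPM.

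Further synthases and related proteins were detected in 8 of 11 cases. Cotl1 (coactosin-like protein, a binding partner of 5-lipoxygenase) stood at 200.4 ± 23.3 TPM, above every member. Akr1b3 (aldose reductase, which can make prostaglandin F2α) stood at 39.9 ± 2.42 TPM, the glutathione transferase Mgst1 at 36.7 ± 3.51 TPM and Prxl2b (a prostamide and prostaglandin F synthase) at 29.7 ± 6.00 TPM. The lowest detected were Ptges2, another prostaglandin E synthase, at 3.37 ± 0.86 TPM and Mgst3 at 2.79 ± 0.72 TPM. The prostanoid synthases outside the set went in opposite ways: Tbxas1 (thromboxane synthase), picked out after its value was seen, stood at 19.2 ± 3.07 TPM, whereas Ptgds (the lipocalin type prostaglandin D synthase) and Ptgis (prostacyclin synthase) had 0 counts in every library.

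None of 6 other lipoxygenases was detected. The highest, the platelet type Alox12, had a mean of 0.113 TPM, and 2 of the 6 had 0 counts in every library. With Alox5 at 0.06 ± 0.01 TPM, no lipoxygenase of the lists reached 1 TPM.

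Genes of inactivation and transport were detected in 6 of 11 cases. The prostaglandin reductases Ptgr2 and Ptgr1 stood at 11.6 ± 0.858 and 5.25 ± 0.601 TPM, the dipeptidase Dpep2, which turns leukotriene D4 into leukotriene E4, at 11.3 ± 2.41 TPM, and the leukotriene C4 exporter Abcc1 at 5.53 ± 0.546 TPM. The lowest detected were the prostaglandin exporter Abcc4 at 2.29 ± 0.451 TPM and Cyp4f18 (which hydroxylates leukotriene B4) at 1.66 ± 0.324 TPM. Hpgd, the dehydrogenase that begins prostaglandin breakdown and was also picked out after its values were seen, had 1 count in replicate 2 and none in the others.

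Receptors were detected in 5 of 16 cases, with 3 at 0 in every library. They were Fpr2 (a formyl peptide receptor that also binds lipoxin A4) at 17.3 ± 3.34 TPM, the prostaglandin E2 receptor Ptger4 at 9.38 ± 0.667 TPM, the cysteinyl leukotriene receptors Cysltr1 and Cysltr2 at 5.73 ± 0.904 and 5.33 ± 1.84 TPM, and the prostacyclin receptor Ptgir at 3.90 ± 1.26 TPM. The cells thus held messenger RNA for receptors of prostacyclin and cysteinyl leukotrienes, while Ptgis was at 0 and Ltc4s below 1 TPM. Mgst3 of the synthase list was detected at 2.79 ± 0.72 TPM. Mgst2 of that list, picked out after its values were seen, stood at 1.28, 0.99 and 0.91 TPM and so was not detected. Whether either supplies cysteinyl leukotrienes here was not tested.

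**Figure D4:**
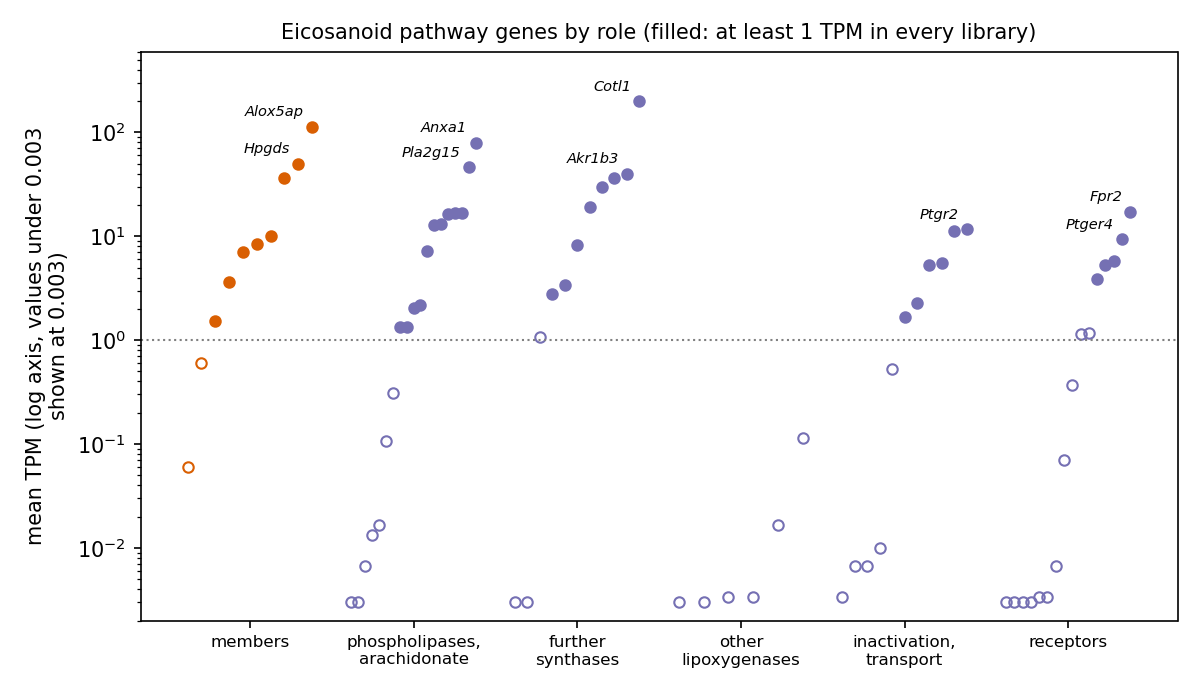
Mean TPM over 3 libraries (log axis; values under 0.003 are drawn at 0.003) of the 10 members and of 63 further pathway genes on 5 lists by role, each point a gene. Filled points reached 1 TPM in every library (8 of 10 members, 12 of 19, 8 of 11, 0 of 6, 6 of 11 and 5 of 16 from left to right), and the highest genes are named.

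The second deposited quantification, rescaled like the first to nuclear protein-coding genes, gave close levels for some members and not for others. Ptgs2 had 30.4 ± 19.2 TPM by the second and 29.4 ± 19.4 TPM by the first, and Alox5ap 358 ± 48.3 and 390 ± 25.8 TPM. Hpgds was higher by the second, at 252 ± 20.1 against 171 ± 14.6 TPM, and so was Ptges, at 17.3 ± 7.16 against 12.3 ± 7.24 TPM. The called differences between pathway steps (Ptges3 above Ptges, Hpgds above Ptges, Alox5ap above Alox5 and Lta4h above Ltc4s) were called in both quantifications. The order of the highest members was not so steady. In the second quantification Alox5ap over Hpgds (0.50 ± 0.30 on the log2(TPM + 1) scale, rescaled) was not called, whereas Hpgds over Ptges3 (0.98 ± 0.28) was.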

How the data were processed

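Per the file headers, each library's deposited tables (genes, transcripts) give an expected count, TPM and the count's posterior standard deviation, laid out as by RSEM. Another deposited table of transcripts, laid out as by kallisto, gives an estimated count and TPM. Per the text deposited with the libraries, reads were quantified on mm10 and GENCODE M21. Aligner, quantifier, their versions and the use of strand: not given in the sources used here. Rows that name no annotated gene (0.774%, 0.207% and 0.167% of counts) were left out, and 0 per-sample columns were set aside.

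Replicate numbers are those of the labels. The members and lists were chosen with earlier results of these data known. In edgeR 4.0.16 (R 4.3.3), rounded expected counts were TMM-scaled and dispersions fitted with an intercept only. The chi-square test kept genes averaging 10 counts or more, with a Benjamini-Hochberg threshold of 0.05. Log differences used a pseudocount of 1 and understate those of low genes. Python 3.11.15 with scipy 1.17.1, numpy 2.4.6, pandas 2.3.3 and matplotlib 3.10.9 did the rest, and blastn 2.17.0 found copies (95% identity, 80% of the shorter sequence, 200 bases, as minimums). Of the 10 members 9 had a RefSeq promoter entry. Named were all members, up to 4 highest and 2 lowest detected genes per role list, the 5 genes nearest Ptgs2 with a mean count of at least 100, the 3 highest response genes and up to 2 per marker list. Where Dpep2 had 2 identifiers, the one with the higher TPM was used. On simulated data that held only counting noise the chi-square test called 0% of 13414 genes. Changes were then put into replicate 2, the deepest, in 50 genes per fold with a mean count of at least 100. Of these it called 66% at 1.2-fold and 100% at 1.5-fold. Its power for genes of fewer counts, such as Ltc4s, or for changes in a shallower library was not simulated. Alternatives were each replicate left out, pseudocount 0.1, detection at 0.1 or 5 TPM, no count filter, DESeq2 1.42.0 size factors, the second quantification, TPM rescaled to nuclear protein-coding genes, CPM and, chosen after seeing the data, coding transcripts alone and the second quantification rescaled.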

Additional observations from a re-analysis of the deposited data

How the results depend on the processing

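No paired analysis was possible because there was only 1 group. The 5 contrasts, the detection counts, the number of called neighbour pairs and the chi-square counts were each computed under the alternatives that apply to them. Of these values, 73 held (a contrast its sign and side of the limit, a count within 1.5 times), 6 moved and 1 became called, and no contrast reversed. A held count can hide other pairs: under the second quantification 3 neighbour pairs were again called, but Alox5ap over Hpgds (0.49 ± 0.30) and Ltc4s over Alox5 (0.31 ± 0.16) were not among them. With the second quantification rescaled to nuclear protein-coding genes, Ltc4s over Alox5 was called (1.30 ± 0.39) and Alox5ap over Hpgds still was not (0.50 ± 0.30). Neighbour differences that were not called changed sign for Ptgs2 minus Pla2g4a without replicate 2 (-0.40), Lta4h minus Ptgs2 without replicate 3 (-0.07) and Hpgds minus Ptges3 with coding transcripts alone (-0.03). The difference of Ptgs2 and Ptgs1 ranged from 1.22 to 2.34 with 1 replicate left out, and was called only without replicate 3. Called neighbour pairs, 3 in all libraries, numbered 5 with coding transcripts alone. They numbered 2 to 6 with 1 replicate left out, where each SD rests on fewer libraries. At a detection limit of 5 TPM the members detected fell from 8 to 5 and the further pathway genes from 31 to 19. Genes called by the chi-square test numbered 5773 to 7320 and members 4 to 6 with 1 replicate left out, where fewer libraries enter the test, and 11791 and 9 under the second quantification. The cause of the other moves was not tested. Depth limits Alox5 and Ltc4s, and replicate 1 is the shallowest. With 1 group at 1 time, no value here is a response to Lipid A.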
